A study of Brachypodium distachyon with 6 samples.

Results

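LAC5, LAC6 and LAC8 are 3 laccase genes of Brachypodium distachyon, a model grass. They were followed in whole roots that had grown on ammonium or on nitrate. The genes were taken by locus identifier: BRADI_1g66720v3 is LACCASE5, BRADI_1g74320v3 is LACCASE6 and BRADI_2g23370v3 is LACCASE8. All 3 were present among the 29627 features of the deposited count table, and all 3 passed the filter on low counts that left 23694 features for testing. By the naming convention of this species, the digit before the letter g places LAC5 and LAC6 on chromosome 1 and LAC8 on chromosome 2. Strand, exons and exact positions were not analysed here.

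Laccases are copper-containing oxidases that plants secrete into the cell wall. There they oxidise monolignols, the phenolic alcohols from which lignin is built, to radicals that couple into the polymer, a task they share with cell wall peroxidases. In roots, lignin stiffens the water-conducting xylem and forms part of the barrier in the endodermis. In Brachypodium, laccase mutants, those of LAC5 among them, are known for a lower lignin content of the culm, the flowering stem of grasses.

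Both groups were the inbred line Bd21 and differed in the nitrogen salt. Nitrogen was 2.5 mM throughout, as 1.25 mM ammonium sulfate in 3 libraries and as 1.25 mM calcium nitrate in the other 3, so the accompanying ion (sulfate or calcium) differed between the groups as well. Seedlings entered hydroponic tanks of 4.5 L when 7 days old and stayed there for 19 days. Each library came from 12 pooled seedlings, and nothing in the labels states that pools of a group had separate tanks. The p-values thus reflect the variation among these pools, part of which may be technical. Had the pools of a group shared a tank, effects of tank and nitrogen source could not be told apart. The pools would then not be independent replicates of the treatment.

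The libraries held 22470936 to 29547877 counts, the smallest being nitrate replicate 3. On the first principal component of log2 CPM (CPM, reads relative to a TMM-scaled library total), ammonium replicate 3 stood at 49.1 against 72.8 and 68.1 for the other ammonium libraries, while the nitrate libraries stood between -64.7 and -60.7. The fold changes, ratios and summed level are therefore also given without that library. Markers of root tissues could not be checked, since the table pairs its identifiers with no gene names. In RNA from whole roots, a smaller proportion of lignifying cells and less RNA per cell cannot be told apart.

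LAC8 was the 1 laccase of the 3 whose level passed the test, and it was lower under ammonium. LAC5 and LAC6 did not pass, with estimates in the opposite direction. LAC8 took 75.5% ± 1.88 of the reads of the 3 genes under nitrate and 65.0% ± 3.74 under ammonium (SD, n = 3 each). Over all tested features 41.4% were called (9800 of 23694, at an adjusted p under 0.05 in the quasi-likelihood test of edgeR), so 1 call among 3 genes is near the background.

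LAC8 (BRADI_2g23370v3) stood at 65.6, 52.9 and 75.4 CPM in nitrate replicates 1 to 3 and at 47.8, 45.9 and 51.6 CPM in ammonium replicates 1 to 3. Every ammonium library lay below every nitrate library, but the gap was narrow. The highest ammonium library (replicate 3, 1428 counts) had an exact 95% counting interval of 48.9 to 54.3 CPM, and the lowest nitrate library (replicate 2, 1373 counts) one of 50.1 to 55.8 CPM. Such a lack of overlap was found for 54.4% of all tested features. The mean level fell from 64.6 ± 11.3 to 48.4 ± 2.90 CPM (SD, n = 3 each), a log2 fold change of -0.42 (SE 0.13, 95% interval -0.70 to -0.13, edgeR adjusted p = 0.027). The level was 1.33-fold lower, with an interval from 1.10-fold to 1.63-fold. Among the features called lower under ammonium, which made up 22.2% of those tested, 19.0% fell by less than LAC8, and the median fall was -0.77 on the log2 scale.

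The call for LAC8 was lost in 4 of the 6 fits that left out 1 library, although its direction was kept in all. The adjusted p of the edgeR test rose to 0.076 without nitrate replicate 1, 0.057 without nitrate replicate 3, 0.077 without ammonium replicate 1 and 0.084 without ammonium replicate 2, with log2 fold changes of -0.41, -0.30, -0.40 and -0.38. It was 0.0059 without nitrate replicate 2 and 0.025 without ammonium replicate 3, with log2 fold changes of -0.54 and -0.47. Without nitrate replicate 1, ammonium replicate 1 or ammonium replicate 2 the SE rose from 0.125 to 0.150, 0.151 and 0.148. Calls over the whole table fell from 9800 to 7836, 7103 and 7379 in these fits. Without nitrate replicate 3 the SE was 0.105 and 9542 features were called.

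**Figure D1:**
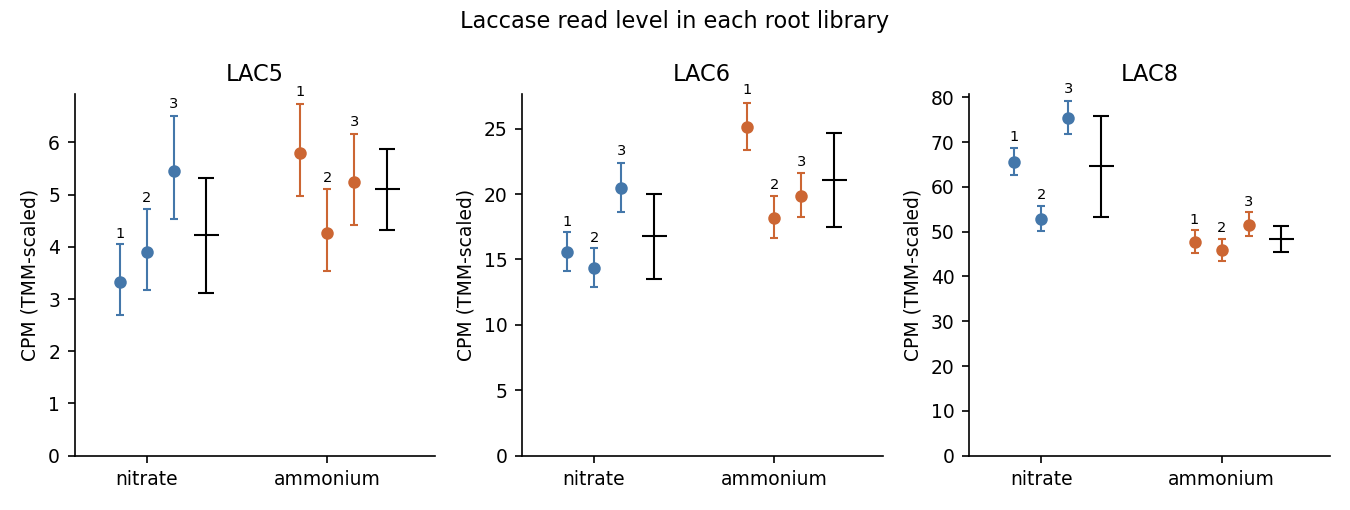
Level of each laccase in CPM (TMM-scaled, linear axes from 0) in the nitrate and ammonium libraries, numbered by replicate; coloured bars are exact 95% counting intervals, and black bars are the group mean ± SD (n = 3). The ammonium libraries of LAC8 (45.9 to 51.6 CPM) lie below its nitrate libraries (52.9 to 75.4 CPM), while the groups overlap for LAC5 and LAC6.

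LAC6 (BRADI_1g74320v3) stood at 15.6, 14.3 and 20.4 CPM in nitrate replicates 1 to 3 and at 25.1, 18.2 and 19.9 CPM in ammonium replicates 1 to 3. The groups overlapped, because nitrate replicate 3 lay above ammonium replicates 2 and 3. The means were 16.8 ± 3.24 CPM under nitrate and 21.1 ± 3.61 CPM under ammonium (SD, n = 3 each). The log2 fold change was 0.33 (SE 0.16, 95% interval -0.04 to 0.70, edgeR adjusted p = 0.13), so a level up to 1.63-fold higher under ammonium lay within the interval, as did no difference. Nitrate replicate 3 decided this outcome: without it the log2 fold change was 0.49 and the edgeR adjusted p 0.039. Without ammonium replicate 1, the highest library, the log2 fold change was 0.19 and the edgeR adjusted p 0.42, and without ammonium replicate 3 they were 0.37 and 0.14.

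LAC5 (BRADI_1g66720v3) had the fewest reads of the 3, with 95 to 172 counts per library. It stood at 3.32, 3.89 and 5.45 CPM in nitrate replicates 1 to 3 and at 5.80, 4.27 and 5.24 CPM in ammonium replicates 1 to 3. Nitrate replicate 3 was again the highest of its group and exceeded ammonium replicates 2 and 3, so the groups overlapped. The means were 4.22 ± 1.10 CPM under nitrate and 5.10 ± 0.774 CPM under ammonium (SD, n = 3 each). The log2 fold change was 0.28 (SE 0.21, 95% interval -0.19 to 0.75, edgeR adjusted p = 0.30). The interval reaches from a 1.14-fold lower to a 1.69-fold higher level under ammonium. The log2 fold change was 0.13 without nitrate replicate 1, 0.18 without ammonium replicate 1 and 0.50 without nitrate replicate 3, and the edgeR adjusted p stayed above 0.05 in each case (0.67, 0.59 and 0.076). Without ammonium replicate 3 the log2 fold change of LAC5 was 0.26 (edgeR adjusted p = 0.42).

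Read numbers limited the precision of LAC5 more than that of LAC8. Counting alone gives a coefficient of variation of 7.62% to 10.3% per library for LAC5, 3.66% to 5.18% for LAC6 and 2.31% to 2.80% for LAC8. The observed coefficient of variation between the pools was 15.2% under ammonium and 26.2% under nitrate for LAC5, and 17.2% and 19.3% for LAC6. For LAC8 it was 5.99% under ammonium and 17.5% under nitrate. In all 6 cases this was above the counting value of every library, and for each gene the nitrate pools were the more variable. Whether the groups differ in variability was not tested with 3 libraries each.

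**Figure D2:**
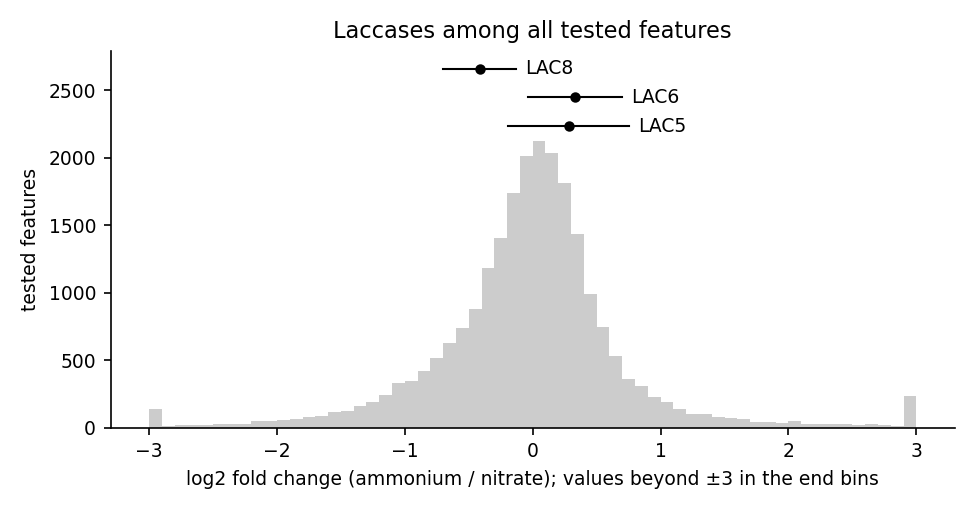
Number of tested features (grey bars) by log2 fold change, ammonium over nitrate, with values beyond ±3 gathered in the end bins; black points and lines are the laccases with their 95% intervals, placed above the bars at arbitrary height. LAC5 (0.28) and LAC6 (0.33) lie above 0 and LAC8 (-0.42) below it, all within the bulk of the tested features.

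Set against the whole table, all 3 differences were of ordinary size. The absolute log2 fold change was smaller in 44.8% of tested features than in LAC5, in 50.7% than in LAC6 and in 59.5% than in LAC8. The median log2 fold change of the 3 genes was 0.28, against 0.00 over all tested features. That median is the value of LAC5, which was not called, whereas the called gene, LAC8, was lower under ammonium. Of features at the abundance of LAC5 (a mean of 1 to 10 CPM) 36.4% were called, and of those at the abundance of LAC6 and LAC8 (10 to 100 CPM) 45.7%.

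The balance of reads between the genes was examined within each library, where library size and scaling cancel out. Gene length also cancels out when a ratio is compared between groups, although the ratio itself counts reads and not molecules. For each read of LAC6 there were 4.22, 3.69 and 3.69 reads of LAC8 in nitrate replicates 1 to 3 and 1.90, 2.52 and 2.60 in ammonium replicates 1 to 3. The groups did not overlap. The log2 ratio of LAC6 to LAC8 reads was -1.95 ± 0.11 under nitrate and -1.21 ± 0.25 under ammonium (SD, n = 3 each), a difference of 0.73, which is a 1.66-fold shift.

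LAC5 shifted against LAC8 by a similar amount. For each read of LAC5 there were 19.8, 13.6 and 13.8 reads of LAC8 in nitrate replicates 1 to 3, and 8.24, 10.7 and 9.85 in ammonium replicates 1 to 3, again without overlap. The log2 ratio of LAC5 to LAC8 reads was -3.95 ± 0.30 under nitrate and -3.25 ± 0.19 under ammonium (SD, n = 3 each), a difference of 0.69 or 1.62-fold. Both ratios contain LAC8, so they are not independent of each other. Among single features 54.4% lacked overlap between the groups, and no such share was computed for pairs of genes. Both differences were larger than the spread between replicates. Each had a p of 0.1 by two-sided exact permutation, and 3 libraries against 3 cannot go lower (0.15 after Benjamini-Hochberg adjustment over the 3 ratios). This test therefore could not pass 0.05, whatever the size of the shift. Without ammonium replicate 3 the differences were 0.82 for LAC6 to LAC8 and 0.72 for LAC5 to LAC8.

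No shift was detected between LAC5 and LAC6. For each read of LAC5 there were 4.68, 3.68 and 3.75 reads of LAC6 in nitrate replicates 1 to 3, and 4.33, 4.26 and 3.79 in ammonium replicates 1 to 3. The groups overlapped, and the log2 ratio of LAC5 to LAC6 differed by -0.04 (-2.00 ± 0.19 under nitrate, -2.04 ± 0.10 under ammonium; SD, n = 3 each; two-sided exact permutation test p = 0.8, adjusted p = 0.8). The difference was -0.10 without ammonium replicate 3, and its sign changed without nitrate replicate 2 (0.023) or nitrate replicate 3 (0.0096).

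**Figure D3:**
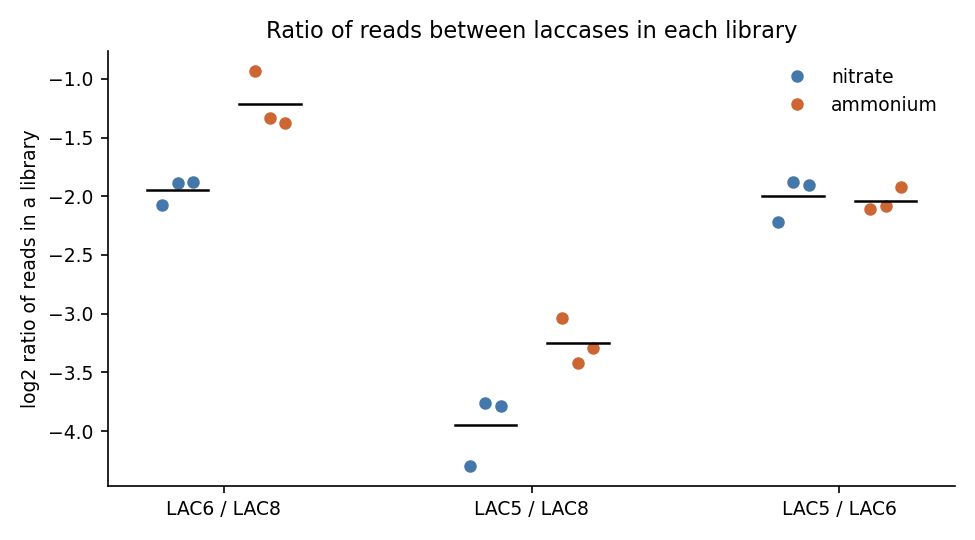
Log2 ratio of reads between each pair of laccases within a library (points) and the group mean (black lines) for 3 nitrate and 3 ammonium libraries. Both ratios to LAC8 are higher in every ammonium library, by 0.73 for LAC6 and 0.69 for LAC5 on average, while the LAC5 to LAC6 ratios overlap.

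Expressed as shares of the reads of all 3 genes, LAC6 made up 18.4%, 20.2% and 20.2% in nitrate replicates 1 to 3 and 31.9%, 26.6% and 25.9% in ammonium replicates 1 to 3. LAC5 made up 3.93%, 5.47% and 5.38% in the nitrate libraries and 7.37%, 6.25% and 6.83% in the ammonium libraries. Neither share overlapped between the groups, although the levels of both genes in CPM did. The shares add up to the whole, so a lower share of LAC8 raises the others by construction. Of single features 54.4% lacked overlap in CPM, and no such figure was computed for shares. Wilson 95% intervals for the LAC8 share, which cover counting error only, were 65.2% to 69.2% in ammonium replicate 3 and 72.3% to 76.3% in nitrate replicate 2. The first library had the highest LAC8 share of the ammonium group (67.3%) and the second the lowest of the nitrate group (74.4%). Ammonium replicate 1 had the lowest LAC8 share of all (60.7%, interval 58.7% to 62.7%).

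The summed level of the 3 laccases overlapped between the groups. It was 84.5, 71.1 and 101 CPM in nitrate replicates 1 to 3 and 78.7, 68.4 and 76.7 CPM in ammonium replicates 1 to 3. The means were 85.6 ± 15.1 CPM and 74.6 ± 5.50 CPM (SD, n = 3 each), a difference smaller than the spread between the nitrate libraries. Between libraries of the same replicate number, which the labels do not call pairs, the ammonium library was the lower one in all 3 cases. This was not tested. Regardless of number, ammonium replicates 1 and 3 lay above nitrate replicate 2. LAC8 made up most of the summed reads in every library, so the sum largely follows LAC8. Without ammonium replicate 3 the log2 ratio of the summed means was -0.22, against -0.20 with all libraries. Nitrate replicate 3 was the highest nitrate library for each of the 3 genes, and it was also the shallowest library. Whether these go together was not tested.

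**Figure D4:**
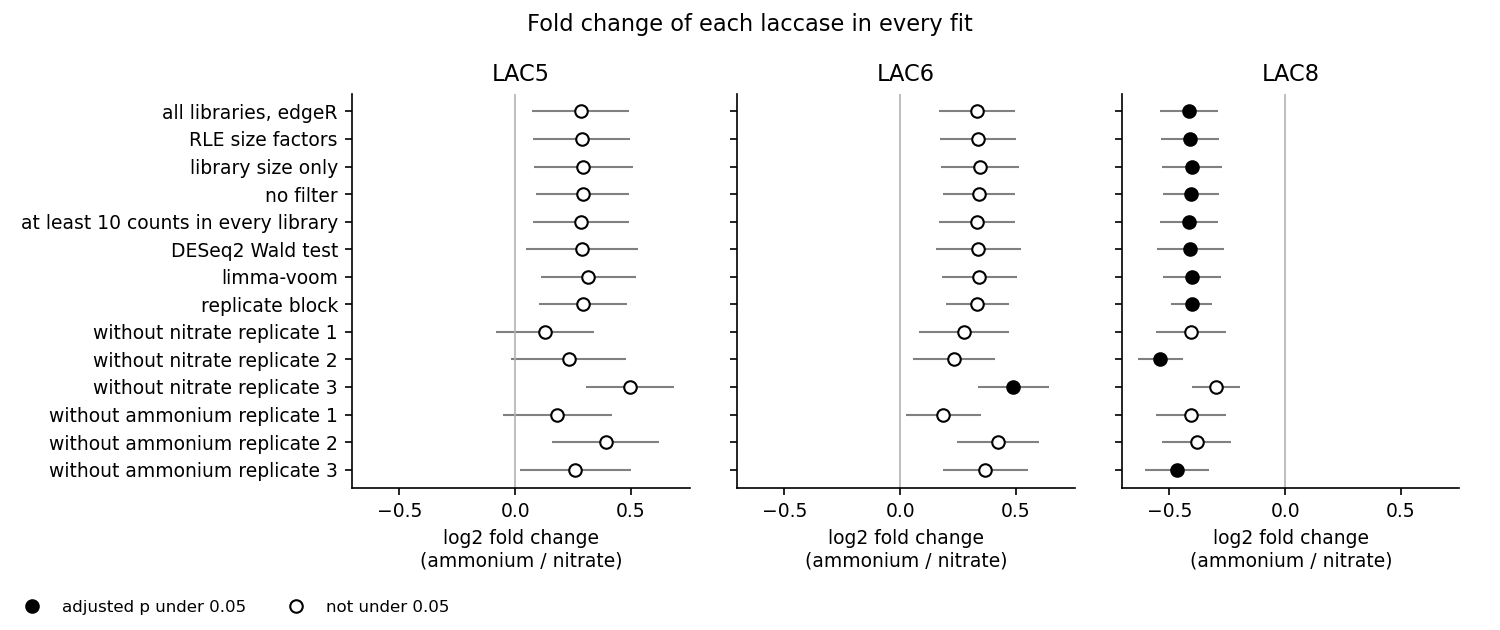
Log2 fold change, ammonium over nitrate, of each laccase in the fit of all libraries with edgeR and in 13 alternatives; lines are ± 1 SE, filled points have an adjusted p under 0.05 and open points do not. LAC8 lies below 0 in every fit (-0.54 to -0.30) and loses the threshold in 4 of those that leave out a library, while LAC6 passes it in 1 fit and LAC5 in none.

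Features with a pattern over the 6 libraries most like that of a laccase were sought by Pearson's r of log2 CPM. The search covered 16401 other features whose mean reached 5 CPM, and r disregards both the level and the size of a change. All features share the differences in nitrogen source and depth between the libraries, and with 6 points high values are frequent, so the r values are descriptions. For LAC8 the most similar feature was BRADI_3g10350v3 (r = 0.996, n = 6 libraries), and 437 features reached an r of 0.9. BRADI_3g10350v3 stood at 8.53, 6.78 and 9.59 CPM in nitrate replicates 1 to 3 and at 5.97, 5.53 and 6.47 CPM in ammonium replicates 1 to 3, with the same order of libraries within each group as LAC8. It fell under ammonium, by a log2 fold change of -0.47 (SE 0.15, edgeR adjusted p = 0.036). This feature was picked for its r with LAC8 over the same libraries, so neither the order nor the fall is separate evidence about LAC8.

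For LAC6 the most similar feature was BRADI_1g59940v3 (r = 0.995, n = 6 libraries), with 280 features at an r of 0.9 or more. Its level was 36.9 ± 2.39 CPM under nitrate and 40.3 ± 2.37 CPM under ammonium (SD, n = 3 each), a log2 fold change of 0.13 that did not pass the test (edgeR adjusted p = 0.26). For LAC5 it was BRADI_5g15377v3 (r = 0.986, n = 6 libraries), with 116 features at an r of 0.9 or more. BRADI_5g15377v3 stood at 52.6 ± 6.71 CPM under nitrate and 57.8 ± 2.97 CPM under ammonium (SD, n = 3 each), and its log2 fold change of 0.14 did not pass either (edgeR adjusted p = 0.31). The sources used here give no names for these 3 features.

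The loci around each laccase, read from the order of locus numbers, were mixed in direction. Of the 20 nearest loci of LAC8, 15 were tested, 2 of them called higher and 4 lower under ammonium. Of those of LAC6, 16 were tested, with 3 higher and 3 lower, and of those of LAC5, 18 were tested, with 4 higher and 5 lower. The shares called, 40%, 37.5% and 50%, compare with 41.4% over the whole table. Without ammonium replicate 1 or replicate 2 the number called around LAC5 dropped from 9 to 4 and 5. In the same fits the number called over the whole table also dropped, from 9800 to 7103 and 7379.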

How the data were processed

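Raw counts of reads per feature were deposited by the authors in 1 table for the 6 libraries. HISAT2 and HTSeq are named in the submitters' processing notes. Versions, genome build, annotation and counting settings are not given in the sources, so reads shared between similar laccase genes, or with overlapping or antisense genes, could not be assessed. Per the labels' protocols, mRNA was selected on poly-T beads before library preparation with a NEBNext Ultra kit.

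All features were tested together with edgeR 4.0.16 in R 4.3.3 (filterByExpr with a minimum count of 10 and a minimum total of 15, TMM scaling, quasi-likelihood F test, nitrogen source as the only term), and p-values were adjusted by Benjamini-Hochberg over all 23694 features. The filter removed 5933 features. The standard error was obtained from the log2 fold change and the F value, and the 95% interval uses the t distribution with the fit's degrees of freedom. CPM values were computed from the counts and TMM-scaled library sizes. Read ratios used log2 counts with 0.5 added, and SciPy 1.17.1 for two-sided exact permutation tests. Log2 CPM for similarity used a prior count of 2. DESeq2 1.42.0, limma 3.58.1 (voom), other scalings and filters, and leaving out each library were alternatives.

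Samples were grouped by their titles. Libraries of a group differed by more than counting noise (chi-square per degree of freedom at least 6.62), so all were kept. The replicate numbers are shared by both groups. Deviations from group means were correlated across features, which are not independent of each other. Pearson's r was 0.11 to 0.21 for same-numbered libraries and -0.13 to -0.02 for the rest. Deviations cancel out within a group, so positive values for same-numbered libraries force negative ones among the rest. The negative values are therefore not separate evidence of pairs. The numbers may mark pairs, but the labels state no pairing, and the main tests did not use the numbers. A fit with the number as a block was an alternative.

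None of the 29627 identifiers (0) matched the 31335 genes of the RefSeq table of assembly Brachypodium_distachyon_v3.0. Lists of other lignin genes, planned as patterns on product names, were therefore not described, and no sequence is shown. The named features are the laccases and, for each, the most similar feature. The genes, lists and tests were chosen with earlier results of these data known.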

Additional observations from a re-analysis of the deposited data

How the results depend on the processing

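Of 13 alternatives, all kept the sign of each laccase's log2 fold change. LAC8 kept its call under the 7 changes of scaling, filter, tool or block (log2 fold change -0.42 to -0.40, adjusted p 0.0074 to 0.036). It lost it in 4 of 6 fits without 1 library, which ranged from -0.54 to -0.30. LAC6 passed the threshold in 1 of 6 such fits (range 0.19 to 0.49) and LAC5 in 0 (0.13 to 0.50). Blocking on the replicate number gave 10526 called features and log2 fold changes of 0.29 (LAC5, edgeR adjusted p = 0.25), 0.33 (LAC6, 0.080) and -0.40 (LAC8, 0.0074), which changed no call of a laccase. Permuting within pairs cannot give p under 0.25. The number of changed features was 7103 to 10526 over all alternatives. Without 1 library, the difference of the log2 ratio LAC6 to LAC8 was 0.59 to 0.82, that of LAC5 to LAC8 0.52 to 0.79, and that of LAC5 to LAC6 -0.15 to 0.023, with a change of sign without nitrate replicate 2 (0.023) or 3 (0.0096). Adding 0 or 2 to each count changed no sign. The log2 ratio of the summed laccase level was -0.32 to -0.06 without 1 library. A second prior count, the neighbour counts in each refit and the summed level without 1 library were added after the data had been seen. LAC5 had the fewest counts of the 3 genes, 95 to 172 per library, and the largest SE, 0.21.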
